A study of Mus musculus with 6 samples.

Results

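Adm, Ramp1, Ramp2, Ace, Flt1 and Vegfa are genes of peptide and growth factor signalling between tissue and blood vessels, and their levels were followed in mouse fat-derived stromal cells during 14 days in osteogenic medium. All probes annotated to these 6 genes were taken, which gave 8 probes: 3 for Ace and 1 for each other gene. Of the 46613 probes used, 13805 carried 1 symbol, so any probe of these genes without a symbol was not found. The genes had been chosen on their course in these same arrays, so their levels, folds and slopes are a description and carry no test. Each of the 8 probes was detected (detection p under 0.01) on at least 1 array. That says little, because all genes with a named probe had a detection p under 0.05 on at least 1 array. The 6 genes are among 9751 with a named probe, of which 8881 had a detected probe and entered the fit over all genes.

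The cells are labelled as mesenchymal stem cells, adipose derived, and came from the fat of the back and groin (dorsal and inguinal) of C57BL/6 mice. They were grown in DMEM/F12 with 10% serum, plated, and changed the next day to a medium with 15% serum and 0.4% DMSO. That medium held dexamethasone, a synthetic glucocorticoid, at 0.1 μM, together with β-glycerophosphate at 10 mM and ascorbic acid at 50 μM. RNA of undifferentiated cells (day 0) and of cells after 1, 3, 6, 10 and 14 days was hybridised to Illumina bead arrays, 1 array a day, and no later array holds cells kept without that medium. The medium, the change of serum and time in culture therefore cannot be told apart. The sources used here give no age or sex of the mice, no number of animals and no pooling. Between 12891 and 13980 probes were detected per array. Of 8 stromal markers with a named probe, 7 were detected on all 6 arrays. Their summed signal was between 69852 (day 10) and 93904 (day 1). In the fit over all genes given below, 1 of these markers rose, 3 fell and 4 gave no call. In these bulk samples, fewer cells of a type and less RNA per cell cannot be told apart.

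Adrenomedullin, the product of Adm, is a secreted peptide that widens blood vessels. Its receptor is the calcitonin receptor-like receptor, Calcrl, which needs a receptor activity-modifying protein (RAMP) at its side: with RAMP1 it responds to calcitonin gene-related peptide, with RAMP2 to adrenomedullin. VEGF-A, the product of Vegfa, is the main growth factor of new blood vessels and signals through the receptor tyrosine kinase KDR. FLT1 binds VEGF-A tightly but signals weakly, so that it can act as a trap for the ligand. Angiotensin-converting enzyme, the product of Ace, cuts angiotensin I to the vessel-constricting angiotensin II and degrades bradykinin.

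The start regions of these genes are shown because the genes moved together or opposite to each other on the arrays and because Ace and Vegfa each have 2 start windows. RefSeq-derived windows of GRCm38.p6, from 250 bases before to 50 bases after a start, were matched by symbol for 5 of the 6 genes. The window of Ramp1 held none of the motifs searched and is not printed. Capitals mark the letters of a hypoxia-inducible factor (HIF) core, ACGTG or GCGTG, of the cAMP response element TGACGTCA, of the TATA core TATAA and of the GC box GGGCGG, on either strand. The TATA core was found on both strands at 1 place in a window, where the matches overlap, and the first 2 GC boxes of Ace overlap. Each line reads 5′ to 3′ on the strand of the gene.
Adm, chr7:110627407-110627706, plus strand: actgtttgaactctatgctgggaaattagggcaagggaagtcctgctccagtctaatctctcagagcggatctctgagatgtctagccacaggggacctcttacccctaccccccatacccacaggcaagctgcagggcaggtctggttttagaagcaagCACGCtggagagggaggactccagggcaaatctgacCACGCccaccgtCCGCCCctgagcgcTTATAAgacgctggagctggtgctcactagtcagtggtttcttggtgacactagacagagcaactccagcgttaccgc
Flt1, chr5:147725962-147726261, minus strand: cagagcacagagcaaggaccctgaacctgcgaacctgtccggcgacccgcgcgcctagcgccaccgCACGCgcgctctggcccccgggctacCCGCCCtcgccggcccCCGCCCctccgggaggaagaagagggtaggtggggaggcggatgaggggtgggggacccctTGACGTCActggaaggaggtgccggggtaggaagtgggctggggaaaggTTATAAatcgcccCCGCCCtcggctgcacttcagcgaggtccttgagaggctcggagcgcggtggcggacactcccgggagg
Vegfa, upstream start, chr17:46032328-46032627, minus strand: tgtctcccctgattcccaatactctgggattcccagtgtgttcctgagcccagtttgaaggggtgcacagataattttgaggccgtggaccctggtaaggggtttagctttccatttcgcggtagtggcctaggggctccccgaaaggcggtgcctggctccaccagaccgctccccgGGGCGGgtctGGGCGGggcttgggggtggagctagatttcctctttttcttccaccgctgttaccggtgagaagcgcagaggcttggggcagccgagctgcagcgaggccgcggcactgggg
Vegfa, downstream start, chr17:46025114-46025413, minus strand: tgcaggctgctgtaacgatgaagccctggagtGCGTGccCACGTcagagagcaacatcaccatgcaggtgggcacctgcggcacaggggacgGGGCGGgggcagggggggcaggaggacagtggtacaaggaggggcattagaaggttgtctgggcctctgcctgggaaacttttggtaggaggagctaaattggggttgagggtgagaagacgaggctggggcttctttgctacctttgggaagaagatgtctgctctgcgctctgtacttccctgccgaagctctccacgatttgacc
Ace, upstream start, chr11:105967698-105967997, plus strand: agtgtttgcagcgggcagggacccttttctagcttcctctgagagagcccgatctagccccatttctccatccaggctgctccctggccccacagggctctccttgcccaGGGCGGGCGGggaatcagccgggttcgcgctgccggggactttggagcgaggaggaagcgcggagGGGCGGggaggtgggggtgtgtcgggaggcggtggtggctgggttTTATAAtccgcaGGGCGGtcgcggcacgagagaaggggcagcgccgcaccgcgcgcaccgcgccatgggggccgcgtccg
Ace, internal start, chr11:105974939-105975238, plus strand: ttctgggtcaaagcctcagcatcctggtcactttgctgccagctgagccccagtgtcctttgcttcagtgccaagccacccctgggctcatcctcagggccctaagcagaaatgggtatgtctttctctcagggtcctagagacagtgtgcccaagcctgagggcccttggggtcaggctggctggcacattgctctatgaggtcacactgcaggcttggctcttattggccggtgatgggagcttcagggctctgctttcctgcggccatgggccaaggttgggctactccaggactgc
The window of Adm held 2 HIF cores of the GCGTG form, at positions -90 and -54 from the start on the reverse strand. The window of Flt1 held 1 such core at -184 and the cAMP response element at -81. A HIF core of either form was present in 43.8% of 32851 windows of this length and the cAMP response element in 1.79%. The upstream window of Vegfa held GC boxes (in 35.7% of all windows) at -72 and -62 and none of the other motifs. Its downstream window held 2 HIF cores, GCGTG at -218 on the strand printed and ACGTG at -211 on the reverse strand, and a GC box at -158. The upstream window of Ace held a TATA core at -30 and 4 GC boxes, while its internal window, the start used in testis, held none of the motifs. The TATA core was present in 24.9% of all windows. The glucocorticoid receptor half-site AGAACA, present in 19% of all windows, was searched as well and was in none of the windows of the 5 genes. A match is no evidence of binding, and the absence of these letters says nothing beyond the window.

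**Figure D1:**
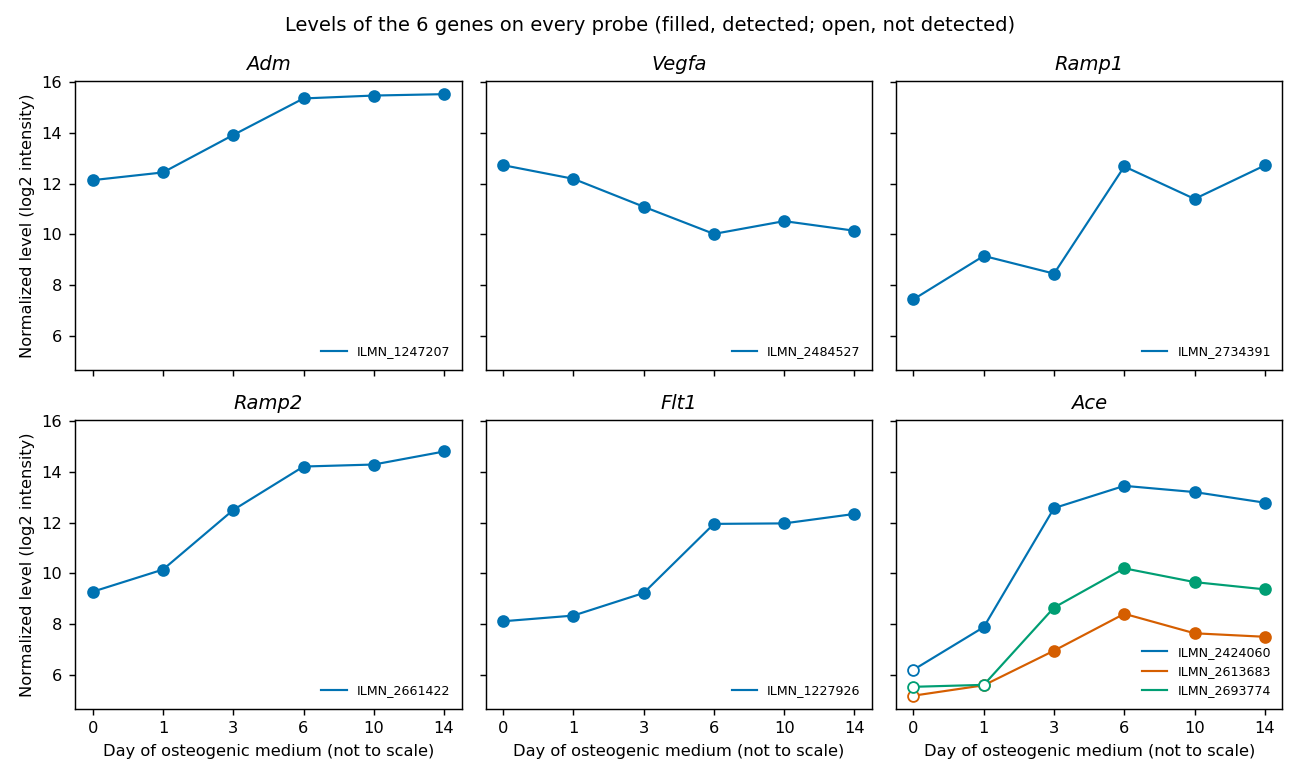
Normalized log2 level of each gene (y axis) on each array (x axis, day of osteogenic medium, evenly spaced and not to scale), 1 line per probe and 1 array per day. Filled points are detected and open points are not. Vegfa ends below day 0 (-2.59 log2 units) and the other genes end above it, with the 3 probes of Ace highest on day 6.

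Both ligand genes changed most between day 1 and day 6, in opposite directions. On the arrays of days 0, 1, 3, 6, 10 and 14, Adm had normalized log2 levels of 12.13, 12.44, 13.91, 15.35, 15.47 and 15.52. Adm was thus low on days 0 and 1, intermediate on day 3 and on a plateau from day 6. Its folds over day 0 on days 3, 6 and 14 were 3.43, 9.33 and 10.5, and the steps to day 3 and day 6 made up 43.5% and 42.5% of the whole change. On days 6, 10 and 14 its signal was at 65.7%, 66.6% and 69.1% of the highest signal on the array. Signals above 50% of the highest were treated as near saturation, so the height of the plateau was taken as unresolved. Saturation itself was not tested. In the authors' deposited table the folds of Adm over day 0 were 3.38, 9.22 and 10.26 on days 3, 6 and 14.

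Vegfa, in the same order of days, had log2 levels of 12.72, 12.19, 11.09, 10.01, 10.52 and 10.14. It was highest before the osteogenic medium and lowest on day 6, and days 6, 10 and 14 all lay below day 3. As a fraction of its day 0 level, Vegfa on days 3, 6, 10 and 14 was at 0.322, 0.153, 0.217 and 0.167. The day 10 array stood 1.42-fold above day 6 and the day 14 array 1.30-fold below day 10. With 1 array a day there is no spread against which these late differences could be judged. In the authors' deposited table the decreases of Vegfa from day 0 were 3.01-fold, 6.04-fold and 5.58-fold at days 3, 6 and 14.

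The genes of both receptor partners were far above day 0 at the end, by different paths. Ramp2 had log2 levels of 9.27, 10.15, 12.49, 14.21, 14.29 and 14.80 from day 0 to day 14. Its level was higher on each array than on the one before, with folds over day 0 of 9.33, 30.6 and 46.2 at days 3, 6 and 14. The authors' deposited table gave 8.14-fold, 26.44-fold and 40.11-fold for these days. Ramp2 and Adm ran closely alike, with a Pearson correlation of 0.995 over the 6 arrays, which each share 1 RNA sample per day. The correlations of the other pairs among the 6 genes ranged in size from 0.759 (Ramp1 and Ace) to -0.986 (Ramp2 and Vegfa). Since all were chosen on their course, nothing is read from these correlations.

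Ramp1 went up and down in turn. Its log2 levels in day order were 7.43, 9.15, 8.45, 12.67, 11.39 and 12.71. Each array against the one before it was 3.28-fold higher (day 1), 1.62-fold lower (day 3), 18.7-fold higher (day 6), 2.43-fold lower (day 10) and 2.50-fold higher (day 14). The step from day 3 to day 6 was the eighth largest increase among 8427 genes detected on either array, and that from day 10 to day 14 ranked 26 of 8324. The fold of day 14 over day 0 was 38.9 here and 24.72 in the authors' deposited table. The detection p of Ramp1 on day 0 was 0.00624, close to the limit of 0.01, so the size of that fold depends on the background. Of 8881 genes 294 (3.31%) had the same order of rises and falls as Ramp1 in the 5 steps, and 264 (2.97%) had the opposite order. With every step at least as large as the smallest of Ramp1, 0.70 log2 units, there were 6 genes, chosen here after their values were seen: Ramp1 itself, Npy, Wnt2, Cd59a, H2-M9 and Rab3b. Npy, which codes for the vasoconstrictor neuropeptide Y, had levels of 5.24, 8.20, 7.12, 9.37, 7.98 and 10.15 from day 0 to day 14. It was not detected on day 0 (detection p of 0.422), so the size of its first step rests on a background value. Whether these alternations come from the cells or from single arrays was not tested.

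**Figure D2:**
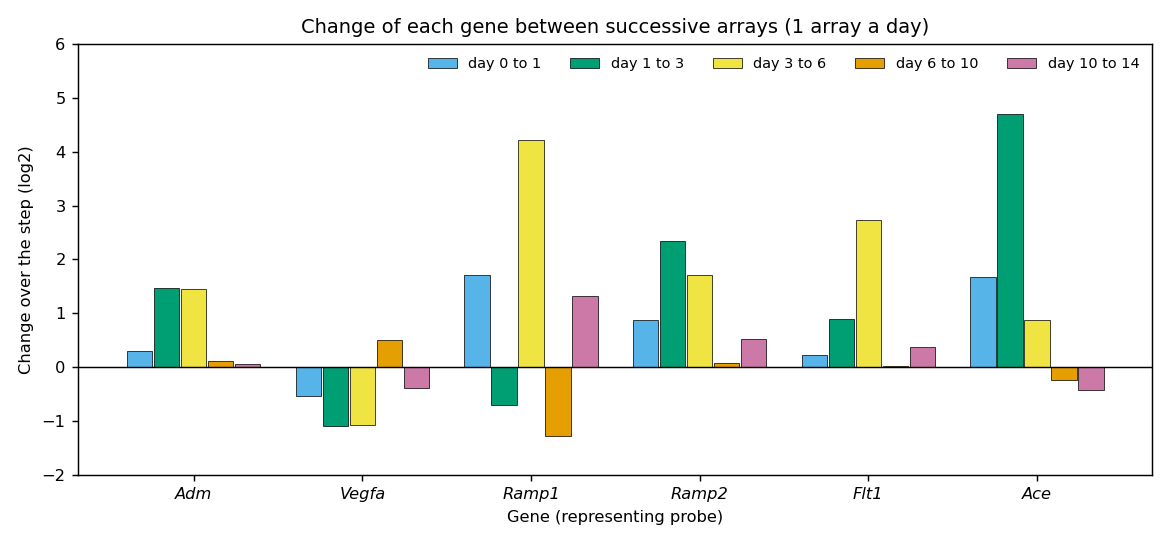
Change in log2 level of each gene between successive arrays (y axis), 1 bar per step and 1 array per day, with no error bars because no day was repeated. The tallest bar of Ace is the step from day 1 to day 3 (4.69), those of Ramp1 and Flt1 are the step from day 3 to day 6 (4.23 and 2.72), and the bars of Ramp1 alternate in sign.

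Flt1 changed mainly in 1 step. In day order its log2 levels were 8.11, 8.33, 9.22, 11.95, 11.97 and 12.34. The arrays of days 0 to 3 were low and those of days 6 to 14 high, with a 6.61-fold step from day 3 to day 6 that held 64.4% of the whole change. Days 6 and 10 differed by 1.01-fold. The folds over day 0 at days 6 and 14 were 14.3 and 18.8, and 10.68 and 13.95 in the authors' deposited table. The probe does not separate full-length from soluble FLT1 in the annotation used here.

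Ace went from background to a strong signal within 3 days. On its representing probe, ILMN_2424060, the deposited signals in day order were 173.9, 363.7, 6208, 11045, 9309 and 6901. The normalized log2 levels were 6.20, 7.88, 12.57, 13.45, 13.20 and 12.78. The day 0 signal was not well above background, with a detection p of 0.0381, while all later arrays detected the gene. Against the lowest detected log2 level on the day 0 array, 6.997, Ace was at least 47.6-fold, 87.4-fold, 73.7-fold and 55.2-fold higher on days 3, 6, 10 and 14. Between day 1 and day 3, which both detected it, Ace was 25.8-fold higher, the largest increase among 8305 genes. From day 6 to day 14 its level went down in both steps, by 1.19-fold and 1.34-fold. In the authors' deposited table the folds over day 0 were 35.33, 64.58, 54.53 and 40.94 on days 3, 6, 10 and 14, so the bounds above do not hold on that scale.

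The other probes of Ace had the same shape, with the highest value on day 6 and lower values on days 10 and 14. ILMN_2693774, annotated to the same transcript as the representing probe, had log2 levels of 5.52, 5.60, 8.65, 10.19, 9.65 and 9.37 and was at least 9.17-fold above day 0 on day 6. ILMN_2613683, annotated to another Ace transcript, had levels of 5.17, 5.58, 6.95, 8.40, 7.63 and 7.50 and was at least 2.65-fold above day 0 on day 6. Neither was detected on day 0 or day 1. In the authors' deposited table these probes reached 8.96-fold and 3.68-fold on day 6, so the first of these bounds does not hold on that scale. With the mean of the 3 probes in place of the representing one, the day 14 difference of Ace from day 0 was 4.25 instead of 6.59 log2 units. Both are measured against a day 0 on which no Ace probe was detected and are no bounds, while the bound for the representing probe was 5.79 log2 units. The position of the probes in the transcripts is not given in the sources used here, so the arrays do not say which of both start sites was used.

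As slopes on log2(day + 1), each with its SE (limma, all 6 arrays), Ace had 1.90 ± 0.330, Ramp2 1.53 ± 0.123, Ramp1 1.34 ± 0.265, Flt1 1.25 ± 0.165, Adm 1.01 ± 0.104 and Vegfa -0.71 ± 0.103 log2 units. Among 8881 genes these slopes ranked 18, 36, 55, 72 and 144 from the top for Ace to Adm in this order, and 281 from the bottom for Vegfa. The SE was widest for Ace and Ramp1. By a fold of 2, 2 of the 6 genes (Ramp1 and Ace) were higher on day 1 than on day 0 and 0 were lower, where 3.97% and 3.65% of the 8133 genes detected on either array were. For Ace, which was not detected on day 0, the bound on day 1 was only 1.84-fold. The authors' deposited table gave 1.93-fold, so the place of Ace in this count rests on a background value. On days 3, 6, 10 and 14, 5 of the 6 genes were at least 2-fold above day 0 and Vegfa was at least 2-fold below it. Among all genes the shares so much higher were 7.39%, 13.5%, 16% and 16.1% on these days, and the shares so much lower were 4.42%, 11.1%, 15.1% and 14%. Of the later steps, that from day 1 to day 3 had 3 of the genes higher and 1 lower (8.67% and 5.62% of all genes), and that from day 3 to day 6 had 4 higher and 1 lower (6.68% and 5.97%). From day 6 to day 10 none was higher and only Ramp1 was lower (1.29% and 4.28%). From day 10 to day 14 only Ramp1 was higher and none was lower (0.961% and 0.252%). Since the genes were chosen on this course, nothing is read from these shares.

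The genes whose course was most like each of the 6, by Pearson correlation over the 6 arrays among 3136 or 3137 genes detected on all arrays and spanning at least 1 log2 unit, were as follows. Adm was closest to Cst3 (0.998), the protease inhibitor cystatin C, and to Agtrap (0.998), which codes for a protein that binds the type 1 angiotensin receptor. From day 6 on, Cst3 was at 89.7%, 88.5% and 85.3% of the array's highest signal, and the plateaus of Adm and Cst3 were both taken as unresolved. Ramp1 was closest to the small heat shock protein gene Hspb1 (0.992) and to Gimap6 (0.991), and Ramp2 to Itgbl1 (0.999) and Nme3 (0.998). Flt1 was closest to Cd109 (0.997) and Osr1 (0.996). Vegfa was closest to the RNA-binding protein gene Larp1 (0.998) and to Rars (0.998), which codes for arginyl-tRNA synthetase. Ace was closest to Cyb561 (0.996), the gene of a cytochrome that carries electrons across vesicle membranes.

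Cyb561 lies next to Ace on chromosome 11, with no protein-coding gene between them in the RefSeq annotation. In day order its log2 levels were 7.38, 8.24, 10.89, 11.21, 10.80 and 10.92, a 14.1-fold difference between day 6 and day 0. With a detection p of 0.00686 on day 0, close to the limit of 0.01, the size of that fold depends on the background. Like Ace, Cyb561 was low on days 0 and 1 and high from day 3 on. The neighbours were looked up after the likeness of Cyb561 was seen. Of the others within 8 genes, 6 were detected on at least 1 array, and their correlations with Ace were lower. Kcnh6, a potassium channel gene 2 genes away on the other side, changed gradually from 6.21 to 7.75 (correlation 0.88) and was detected on 3 arrays. Dcaf7, 3 genes away, went from 10.87 to 7.54 (correlation -0.86). Mrc2, 4 genes away on the side of Cyb561, went from 13.12 to 11.77 (correlation -0.86). The representing probe of Dcaf7 had a slope of -0.99. Its other probes had smaller slopes of -0.62, detected on 3 arrays, and -0.15, detected on 0. Mettl2, Taco1 and Map3k3 had correlations with Ace of -0.38, -0.92 and 0.40.

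**Figure D3:**
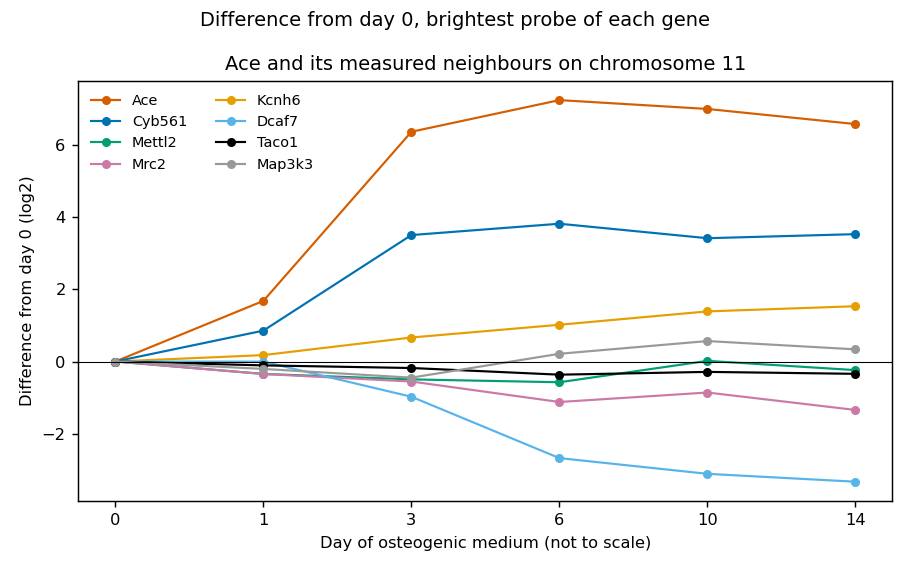
Difference from day 0 in log2 level (y axis) by day (x axis, not to scale) for Ace and the detected genes within 8 genes of it on chromosome 11, 1 array per day. Ace and Cyb561 both jump between day 1 and day 3 and stay high, while Dcaf7 ends 3.33 log2 units below day 0 on its representing probe.

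The lists that follow hold genes related to the 6, which are left out of them, and their genes were tested in the fit over all genes (limma, two-sided, Benjamini-Hochberg adjusted over 8881 genes at 0.05). By that test 36.3% of all genes were called, 18.6% risen and 17.7% fallen, with a median slope of -0.000972. Without day 14 the counts over all genes were 590 risen and 432 fallen instead of 1648 and 1572, and without day 10 they were 770 and 639. Of 12 symbols of the adrenomedullin and calcitonin peptide system, 2 had a named probe and 0 were called: Pam, which amidates adrenomedullin, at 0.24 ± 0.102 (adjusted p = 0.101) and Crcp at -0.19 ± 0.0624 (adjusted p = 0.0511). Crcp was called with the mean of its probes, so the count of 0 by limma became 1 there. Calcrl, the receptor that both RAMP proteins need, Ramp3 and Calca were not analysed here.

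Of the renin-angiotensin and kinin system, 11 of 24 symbols were tested, of which 4 rose and 3 fell, with a median slope of 0.10. Agt, which codes for angiotensinogen, the precursor of the peptide that ACE cuts, had log2 levels of 5.69, 5.64, 7.20, 9.07, 8.51 and 8.79 from day 0 to day 14. Agt rose at 0.96 ± 0.160 (adjusted p = 0.00744) and was detected from day 3 on. Agtr1a, a receptor for angiotensin II, was between 9.62 and 9.90 up to day 3 and between 11.22 and 11.42 from day 6, and rose at 0.54 ± 0.107 (adjusted p = 0.0111). Genes of the precursor, the enzyme and the receptor were therefore all higher from day 6 on than on days 0 and 1. Agtrap rose at 0.57 ± 0.0710 and the kininogen gene Kng1 at 0.87 ± 0.282 (adjusted p = 0.0472). Kng1 shared the jump of Ace between day 1 and day 3, with log2 levels of 9.09, 8.83, 12.60, 12.65, 11.89 and 11.66. Kng1 has a near-identical mouse relative, which its probe may not separate, and lost its call in 11 of 16 alternatives (adjusted p 0.0210 to 0.192). The 3 genes that fell code for peptidases, named after their values were seen: Prep at -0.46 ± 0.0604, Prcp at -0.43 ± 0.106 and Thop1 at -0.33 ± 0.0866. The peptidase genes Anpep, Rnpep and Nln, of the same list, gave no call, with slopes of 0.19, 0.10 and -0.04 (adjusted p = 0.395, 0.198 and 0.617). Agtr1a lost its call without day 14 (adjusted p 0.00872 to 0.0541 over its alternatives). Prcp lost it without day 1, 10 or 14 (0.0138 to 0.0725), and Thop1 without day 10 or 14, with median scaling and in a joint test of linear and quadratic terms (0.0112 to 0.104). The count of 7 calls was 3 without day 14 and 4 without day 10.

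Within the VEGF family the ligand genes Vegfb, Vegfc and Vegfd and the neuropilin genes went opposite to Vegfa. Of 8 tested genes besides Flt1 and Vegfa, 5 rose and 0 fell, with a median slope of 0.47. Vegfc, whose product drives lymphatic vessel growth, had log2 levels of 9.63, 11.42, 11.10, 12.76, 13.26 and 13.44, 14.0-fold higher on day 14 than on day 0, and rose at 0.95 ± 0.117 (adjusted p = 0.00413). Vegfd, another ligand gene of the family, was at 13.55 on day 0 and 15.50 on day 14 and rose at 0.59 ± 0.0885 (adjusted p = 0.00583). The size of this rise was taken as unresolved, because the signal of Vegfd reached 71.8% of the highest on day 6. The neuropilins are co-receptors of VEGF receptors. Nrp1 went from 12.52 to 15.05 and rose at 0.75 ± 0.0999 (adjusted p = 0.00469), and Nrp2 went from 8.68 to 11.21 and rose at 0.80 ± 0.117 (adjusted p = 0.00565). Vegfb, named after its values were seen, rose at 0.34 ± 0.0929 (adjusted p = 0.0278) and lost its call without day 6, 10 or 14 and in the joint test (0.00726 to 0.104). Its slope was 0.54 without day 0. The other 3 genes gave no call. The signalling receptor gene Kdr was between 7.76 and 8.18 on all arrays (-0.10 ± 0.0667, adjusted p = 0.290) and Flt4, named after its values were seen, went from 9.002 to 8.42 (-0.11 ± 0.0628, adjusted p = 0.203). Plxnd1, a semaphorin receptor gene, was between 10.66 and 11.11 (0.06 ± 0.0612, adjusted p = 0.493). Pgf was not analysed here.

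**Figure D4:**
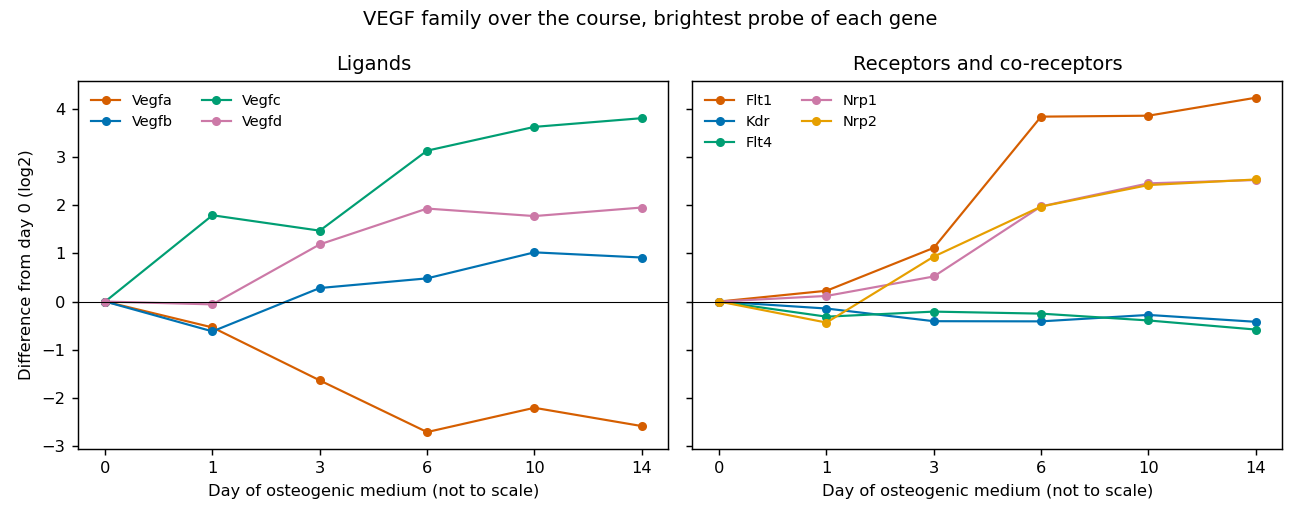
Difference from day 0 in log2 level (y axis) by day (x axis, not to scale) for VEGF ligand genes (left) and for receptor and co-receptor genes (right), 1 array per day. Vegfa ends at -2.59 and Vegfc at 3.81 log2 units, and Flt1, Nrp1 and Nrp2 end above day 0 while Kdr and Flt4 end slightly below it.

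Other angiogenic genes went both ways, with 10 risen and 8 fallen of 33 tested and a median slope of -0.04. Angpt2, the angiopoietin that destabilises vessels, had log2 levels of 8.42, 8.43, 11.02, 12.93, 11.83 and 12.81 and rose at 1.26 ± 0.205 (adjusted p = 0.00700). The chemokine gene Cxcl12 rose at 0.89 ± 0.242 (adjusted p = 0.0281), and Col18a1, whose product releases the angiogenesis inhibitor endostatin, at 0.81 ± 0.228 (adjusted p = 0.0315). Vash2, an angiogenic vasohibin gene, fell at -0.79 ± 0.164 (adjusted p = 0.0129). Vash2 lost its call without day 14 (0.00476 to 0.0672 over its alternatives), Cxcl12 without day 6, 10 or 14 and in the joint test (0.00652 to 0.110, with a slope of 1.41 without day 0), and Col18a1 without day 0, 1, 10 or 14, in the joint test and with time in days (0.0273 to 0.127). Other probes of Cxcl12 had slopes of 0.20, detected on all 6 arrays, and 0.97, detected on 5. The count of 18 calls was 5 without day 14, 9 without day 10, 12 without day 6 and 11 in the joint test.

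Among other vasoactive peptides, their receptors and nitric oxide signalling, 6 rose and 1 fell of 13 tested, with a median slope of 0.29. Edn1, which codes for the vasoconstrictor endothelin-1, had log2 levels of 11.19, 10.26, 11.27, 13.63, 14.45 and 14.08 and rose at 1.04 ± 0.216 (adjusted p = 0.0128). Prkg1, a cyclic GMP-dependent kinase gene, rose at 0.60 ± 0.114 (adjusted p = 0.0101), and Gucy1a1, a subunit of the nitric oxide receptor, at 0.63 ± 0.158 (adjusted p = 0.0225), the latter detected on 2 arrays. Npr2, a natriuretic peptide receptor that makes cyclic GMP, gave no call at 0.15 ± 0.0911 (adjusted p = 0.218). Npr3, another natriuretic peptide receptor gene named after its values were seen, rose at 0.55 ± 0.162 (adjusted p = 0.0363). Npy rose at 0.94 ± 0.258 (adjusted p = 0.0291). It was detected on 5 arrays and not on day 0, so the size of this slope rests in part on a background value. The gene that fell, Ece2, an endothelin-converting enzyme named after its values were seen, had -0.32 ± 0.0753 (adjusted p = 0.0184). Ece1, also an endothelin-converting enzyme gene and named after its values were seen, gave no call at 0.09 ± 0.118 (adjusted p = 0.581). Edn1 lost its call without day 14 (0.00429 to 0.0543 over its alternatives). Npy lost it without day 0, 6 or 14, with time in days and in the joint test (0.0177 to 0.212). Gucy1a1 lost it without day 1 or 14 and in the joint test (0.0163 to 0.118), and Ece2 without day 10 or 14 and with the mean of its probes (0.0113 to 0.0886). The count of 7 calls was 2 without day 14 and 4 without any 1 of days 1, 6 and 10.

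Adm and Vegfa are both textbook targets of the hypoxia-inducible factors, and the other genes of that list were compared because both moved apart. Of 22 tested genes 3 rose and 7 fell, with a median slope of -0.06. The glycolytic targets Hk2 and Pgk1 fell at -0.70 ± 0.117 (adjusted p = 0.00744) and -0.68 ± 0.0912 (adjusted p = 0.00469). Pgk1 was detected on 3 arrays and not from day 6 on, so the size of its slope rests in part on background values. Hif3a, a HIF alpha subunit that can restrain the others, had log2 levels of 5.12, 5.56, 8.65, 11.88, 12.57 and 12.43 and rose at 2.22 ± 0.222 (adjusted p = 0.00284). It was not detected on days 0 and 1, so the size of this slope rests on background values there. The rise of Hif3a rests on 1 probe: its other probe, ILMN_1247370, was detected on all 6 arrays and had a slope of -0.15. Mxi1, a repressor of the MYC network, rose at 0.75 ± 0.149 (adjusted p = 0.0115), and the histone demethylase gene Kdm3a, named after its values were seen, at 0.43 ± 0.113 (adjusted p = 0.0251). Kdm3a lost its call without day 6, 10 or 14, in the joint test and with the mean of its probes (0.0116 to 0.0888). The count of 10 calls was 5 without day 14 and 6 without day 6 or day 10. Hif1a and Epas1 were not analysed here.

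**Figure D5:**
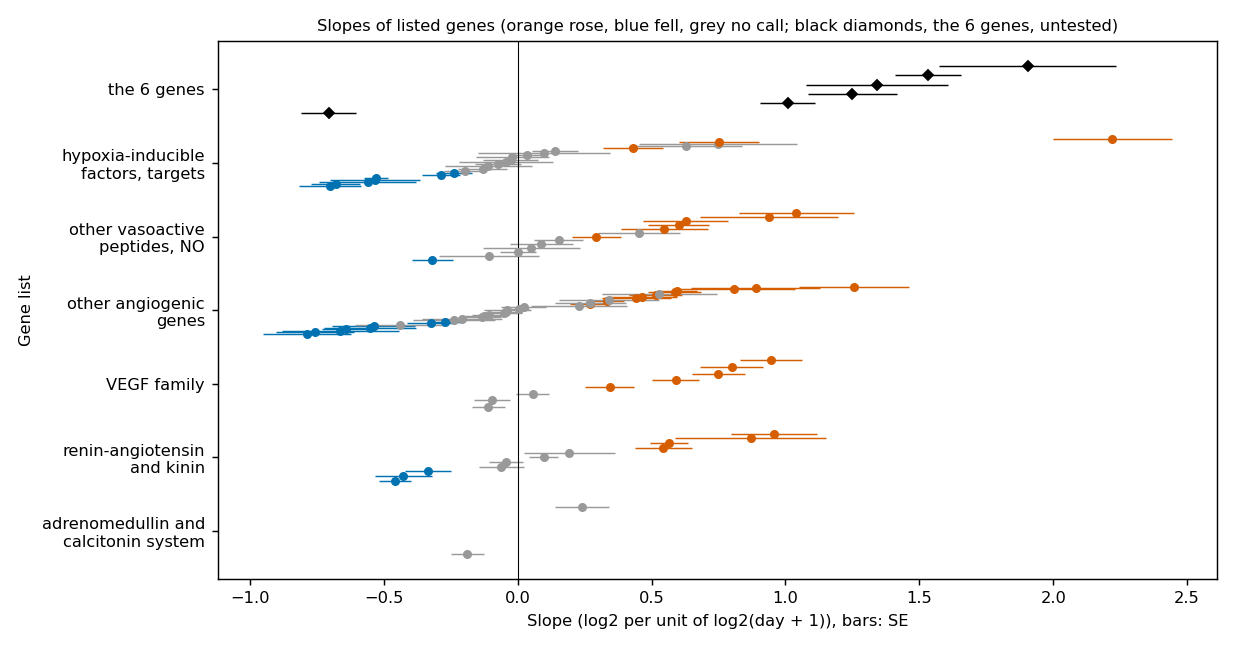
Slope on log2(day + 1) with SE (x axis) of each tested gene, by list (y axis), with the 6 genes as black diamonds at the top. Orange genes rose, blue genes fell and grey genes had no call. In the VEGF family 5 genes rose and 0 fell, while the hypoxia list has 3 risen and 7 fallen genes.

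Flt1, Ramp2 and Ace are also known as genes of endothelial cells, the lining of blood vessels, so markers of the cell types that the culture could hold are given beside them. Of 14 endothelial markers 4 had a named probe. Whether the array holds or detects the other markers is not known from the annotation used here. Every gene with a named probe had a detection p under 0.05 on at least 1 array. The marker counts and sums given here therefore cover only such genes. Emcn was detected on no array, Kdr and Tek gave no call, and Egfl7, at 9.77 on day 0 and 7.27 on day 14, fell at -0.83 ± 0.216 (adjusted p = 0.0250, 0.00849 to 0.0892 over its alternatives, lost without day 1, 6, 10 or 14). The summed signal of these 4 probes in day order was 1864, 1841, 2516, 1647, 1512 and 1294. Egfl7 had a signal of 918.7 on day 0 and 254.1 on day 14, while Kdr went from 376.7 to 317.8 and Tek from 430.2 to 550.5. The other probes of Egfl7 had slopes of -0.54 and -0.06 and were detected on 2 and 0 arrays. The 5 adipocyte markers with a named probe all rose, and their summed signal in the same order was 2919, 5074, 6849, 17284, 23645 and 21622. The 5 pericyte and smooth muscle markers summed to between 36947 and 69630, with 0 risen and 2 fallen. Of 9 osteoblast markers 3 had a named probe. All 3 fell, and their sum went from 53379 on day 0 to 4854 on day 14. Most of that sum was the collagen gene Col1a1, with a signal of 51400 on day 0 and 4444 on day 14. The leukocyte list had 1 named probe, Cd14, whose signal was 166.1 on day 0 and 614.5 on day 14 and which rose, and the lymphatic list had 1, Flt4. The part of any of these cell types in the levels of the 6 genes was not tested.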

How the data were processed

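Total RNA of 6 samples, 1 a day, was measured on Illumina bead arrays. The authors deposited a linear intensity for each probe and array, on the scanner's own scale. A detection p-value stands beside each intensity, per the file headers. A further deposited table holds the authors' signed fold score of each later array over the control, with a fall written as minus the inverse ratio. For the scanner software, any background subtraction and the scaling of that table, the sources used here say nothing. Array columns carry the names C and T1 to T5 and were linked to days through the sample columns of the series matrix, where 17785 of 17785 values were equal within 1e-05 on every array.

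Of 46649 entries, 6 without and 30 with a repeated probe identifier were left out. Intensities were background corrected with nec of limma 3.58.1 (R 4.3.3, offset 16), quantile normalized, and log2 was taken. A probe counts as detected at a detection p under 0.01. Symbols came from GEO's platform annotation (13805 probes with 1 symbol, 3 with several, 13788 found by gene identifier in the RefSeq table, 0 renamed). The probe with the highest mean represented a gene. No build is given for the array. A fold against an array that did not detect the gene is a bound, set against the lowest detected level there. Slopes were fitted with lmFit and eBayes (intensity trend, 4 residual degrees of freedom). With 1 array a day, single days have no test, and the p-value of a slope measures only the scatter of the arrays around the line. Precision is limited by signal over background and by the small number of arrays. The fit was tested on simulated data.

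The members, lists and rules were chosen with earlier results of these data known. Named genes are the 6 members, up to 4 called genes with the largest slopes per list, a fixed set of receptors and ligands, and up to 3 genes most like each member. Alternatives were the scaling, background correction, offset, probe choice, detection limit, time axis, test, the authors' fold table and leaving out each array.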

Additional observations from a re-analysis of the deposited data

How the results depend on the processing

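The 6 genes kept their direction under every alternative run. Leaving out each array in turn gave slopes of 1.59 to 2.30 for Ace, 1.45 to 1.63 for Ramp2, 1.23 to 1.44 for Ramp1, 1.17 to 1.51 for Flt1, 0.93 to 1.11 for Adm and -0.77 to -0.66 for Vegfa. With the mean of all probes the slope of Ace was 1.30, its day 14 difference from day 0, where no Ace probe was detected, was 4.25 log2 units, and the adrenomedullin and calcitonin list had 1 call. The joint test of a linear with a quadratic term called 972 risen and 859 fallen genes and 11 angiogenic genes. Leaving out each array gave 590 to 1659 risen and 432 to 1587 fallen genes. The calls then numbered 3 to 7 in the renin-angiotensin list, 4 to 5 in the VEGF family, 5 to 18 in the angiogenic list, 2 to 10 in the vasoactive list, 5 to 10 in the hypoxia list and 0 in the adrenomedullin and calcitonin list. The cause was not tested. Without day 0 or day 3, which also leaves 5 arrays, the counts over all genes were 1641 and 1659 risen and 1587 and 1555 fallen. A detection limit of 0.05 admitted the same 9751 genes as no filter. No paired analysis was possible because each day has 1 array. Background limits Ace and Ramp1 on day 0.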
